A study of Mus musculus with 10 samples.

Results

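Mitosis and spindle checkpoint genes were followed in ribosome footprints of the developing mouse neocortex. The set holds 44 genes, given by name, which encode the kinases that start mitosis, the kinetochore and its checkpoint, the machinery of anaphase, condensin, spindle assembly factors and the cytokinesis apparatus. Kinesins were left out as a family, although Cenpe, which is kept as a kinetochore gene, is itself a kinesin. All 44 were found among the 22373 genes of the count table, and all 44 passed the low-count filter that left 13484 genes for testing. Footprints, also called ribosome-protected mRNA fragments (RPFs), were counted in 10 libraries, with 2 at each of 5 ages. These were E12.5, E14 and E15.5 (embryonic days after timed matings), E17, and the day of birth (P0). All groups were untreated wild-type CD-1 mice, both sexes were pooled without distinction, and brains were pooled for each library, which makes a replicate 1 pool rather than 1 animal. Lysates were made without cycloheximide and digested with RNase T1 and RNase A. The 2 libraries of a stage are biological duplicates per the study's methods.

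At the onset of mitosis, the kinase Cdk1 bound to a B-type cyclin is switched on by Cdc25 phosphatases. Chromosomes are compacted by condensin and topoisomerase II, and their kinetochores attach to spindle microtubules. Until every kinetochore is attached, the spindle checkpoint holds back Cdc20, the activator of the anaphase-promoting complex (APC/C). The APC/C then marks securin and cyclin B for destruction, separase cleaves cohesin, and the cell divides. In the neocortex these divisions take place in radial glia at the ventricular surface and in intermediate progenitors above them, while the neurons they produce do not divide again. Genes of this group are known to peak together late in the cell cycle and to be repressed in non-dividing cells.

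Footprints of all 44 genes were lower at P0 than at E12.5, and none of the 44 was called higher in any of the 5 comparisons. The median fall over the whole course was 13.2-fold, with a fitted log2 fold change between −4.62 for Bub1b and −0.77 for Bub3. The word called is used below for genes with a limma-voom adjusted p under 0.05 and a change of at least 0.32 on the log2 scale. By this rule 44 of 44 members were called lower at P0, against 32% of all genes tested. In 44 of 44 members both P0 libraries lay below both E12.5 libraries, which was so for 38.8% of all genes. The median log2 fold change was −3.72 for the members and −0.01 for all genes, and 1.75% of all genes fell further than the members' median. Across the 5 stages, a moderated F test found a change in 44 of 44 members and in 63.8% of all genes.

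Summed over the 44 genes, footprints took 0.308% ± 0.0099 of all E12.5 counts (SD, n = 2). The share was 0.242% ± 0.0136 in E14 libraries, 0.159% ± 0.0023 in those of E15.5, 0.105% ± 0.0064 in those of E17 and 0.0590% ± 0.0011 after birth. In CPM, counts scaled to a common library size after TMM adjustment, the summed level was 3708 and 3731 in the E12.5 pair, then 2734 and 2884 (E14), 1517 and 1493 (E15.5), 997.7 and 900.0 (E17), and finally 477.4 and 509.3 at P0. No 2 neighbouring stages overlapped, and each was below the one before it. The percentages report a share of the ribosome footprints of the whole tissue. CPM and fitted fold changes are relative levels after TMM scaling, not plain shares. With library sizes from total counts alone, the members' median log2 fold change from E12.5 to P0 was −3.21 instead of −3.72. Neither measure is a number of ribosomes. Fewer dividing cells and fewer footprints per dividing cell therefore cannot be told apart in these libraries, nor can a lower mRNA level and a lower ribosome load, since mRNA was not analysed here.

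**Figure D1:**
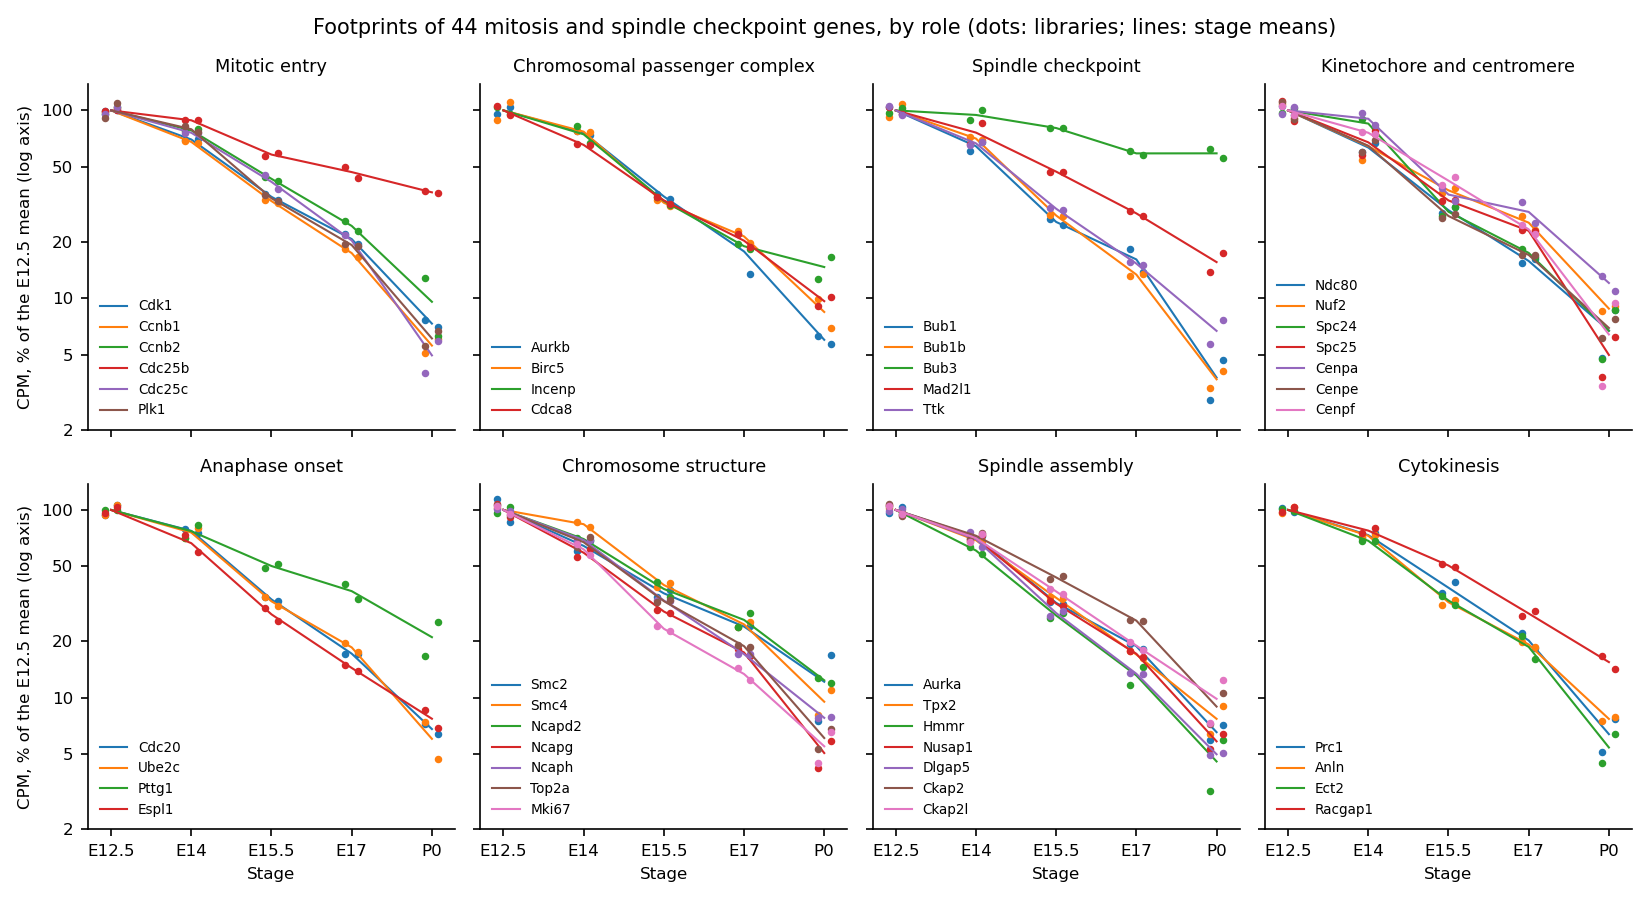
CPM of each member as a percentage of its mean at E12.5, on a log axis, for the 5 stages in 8 panels by role. Dots are the 2 libraries of a stage and lines join the stage means. Most genes end between 3.70% and 15.6% of their E12.5 level, while Bub3 (59.1%), Cdc25b (36.6%) and Pttg1 (21.0%) end above the rest.

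Library totals ran from 7544404 to 36129988 counts, and the smallest was P0 replicate 1. The P0 pair also stood apart, with an SD of the log2 ratio between its libraries of 0.54 over 4559 well-covered genes, against 0.13 to 0.22 in the other 4 pairs. The members were lower in P0 replicate 1 than in P0 replicate 2 by a median of 0.28 on the log2 scale. In P0 replicate 1, 13 members had under 10 counts, down to 2 for Bub1, with a median of 34. In P0 replicate 2 the lowest was 11 counts for Espl1 and the median was 174.5. Without either P0 library in turn, 44 of 44 members were still called lower at P0 than at E12.5, with the lone library assumed to vary like the other stages.

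Promoter sequence was compared next. It was not used in choosing the members, but the 2 motifs searched were picked from cell cycle promoters and so are not independent of the set. RefSeq windows (GRCm38.p6, from 250 bases before to 50 after the annotated start) were available for 37 of the 44 genes, with 2 windows each for 3 of them. The windows were searched on both strands for 2 short motifs known from cell cycle promoters. CCAAT is the box bound by the factor NF-Y, and TTTGAA is the core of the cell cycle genes homology region (CHR), bound by the MuvB-containing DREAM and B-Myb complexes. The upstream stretch of 150 bases is shown for the mitotic entry kinase and its cyclins, for Ube2c and Top2a, and for Bub3, the member that fell least. In the stretch shown, Cdk1, Ube2c, Top2a and Bub3 hold both motifs. Ccnb2 holds TTTGAA outside it, at −167 and 5 from the start site. Each stretch is written 5′ to 3′ along the gene's strand and ends at the base before the start site. Capitals mark CCAAT or its reverse complement ATTGG, and TTTGAA or its reverse complement TTCAAA.
Cdk1 (chr10:69352913-69353062, minus strand): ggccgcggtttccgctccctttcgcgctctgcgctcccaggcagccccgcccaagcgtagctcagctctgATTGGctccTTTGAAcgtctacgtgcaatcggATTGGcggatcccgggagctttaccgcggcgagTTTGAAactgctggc
Ccnb1 (chr13:100786487-100786636, minus strand): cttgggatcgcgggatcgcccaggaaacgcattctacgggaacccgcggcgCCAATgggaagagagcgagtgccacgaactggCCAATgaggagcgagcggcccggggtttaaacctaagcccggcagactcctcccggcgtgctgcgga
Ccnb2 (chr9:70421555-70421704, minus strand): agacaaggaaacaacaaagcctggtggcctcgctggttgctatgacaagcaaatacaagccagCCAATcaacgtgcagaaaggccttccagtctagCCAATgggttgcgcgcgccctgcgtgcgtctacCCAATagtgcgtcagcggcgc
Ube2c (chr2:164769779-164769928, plus strand): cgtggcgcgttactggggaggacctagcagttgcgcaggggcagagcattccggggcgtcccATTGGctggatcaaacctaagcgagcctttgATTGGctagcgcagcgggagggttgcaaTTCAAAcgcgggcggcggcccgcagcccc
Top2a (chr11:99024190-99024339, minus strand): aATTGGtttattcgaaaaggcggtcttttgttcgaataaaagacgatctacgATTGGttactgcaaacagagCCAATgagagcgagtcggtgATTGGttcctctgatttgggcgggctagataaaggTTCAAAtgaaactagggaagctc
Bub3 (chr7:131560220-131560369, plus strand): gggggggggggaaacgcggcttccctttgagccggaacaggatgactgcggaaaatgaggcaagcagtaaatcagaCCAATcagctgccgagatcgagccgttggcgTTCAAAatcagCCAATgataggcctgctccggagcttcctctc

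CCAAT was present in 29 of the 37 members' windows (78.4%), against 41.1% of 27025 genes with a window and 43.5% of the 10376 tested genes with one. It occurred at least 2 times in 19 members (51.4%), against 16.9% of tested genes. TTTGAA was found in 27 of 37 (73.0%), against 20.2% of all and 14.2% of tested genes with a window. Both motifs stood in 1 window in 25 members (67.6%), against 7.97% of all and 5.995% of tested genes with a window. A CCAAT match and a TTTGAA match on either strand can share at most 1 base. With 1 window per gene, 53 of 67 CCAAT matches lay in the 150 bases before the start, with a median position of −68. The TTTGAA matches sat nearer the start, at a median of −5, with 26 of 35 within 60 bases before to 50 after it. These are matches of letters, and no binding was measured.

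**Figure D2:**
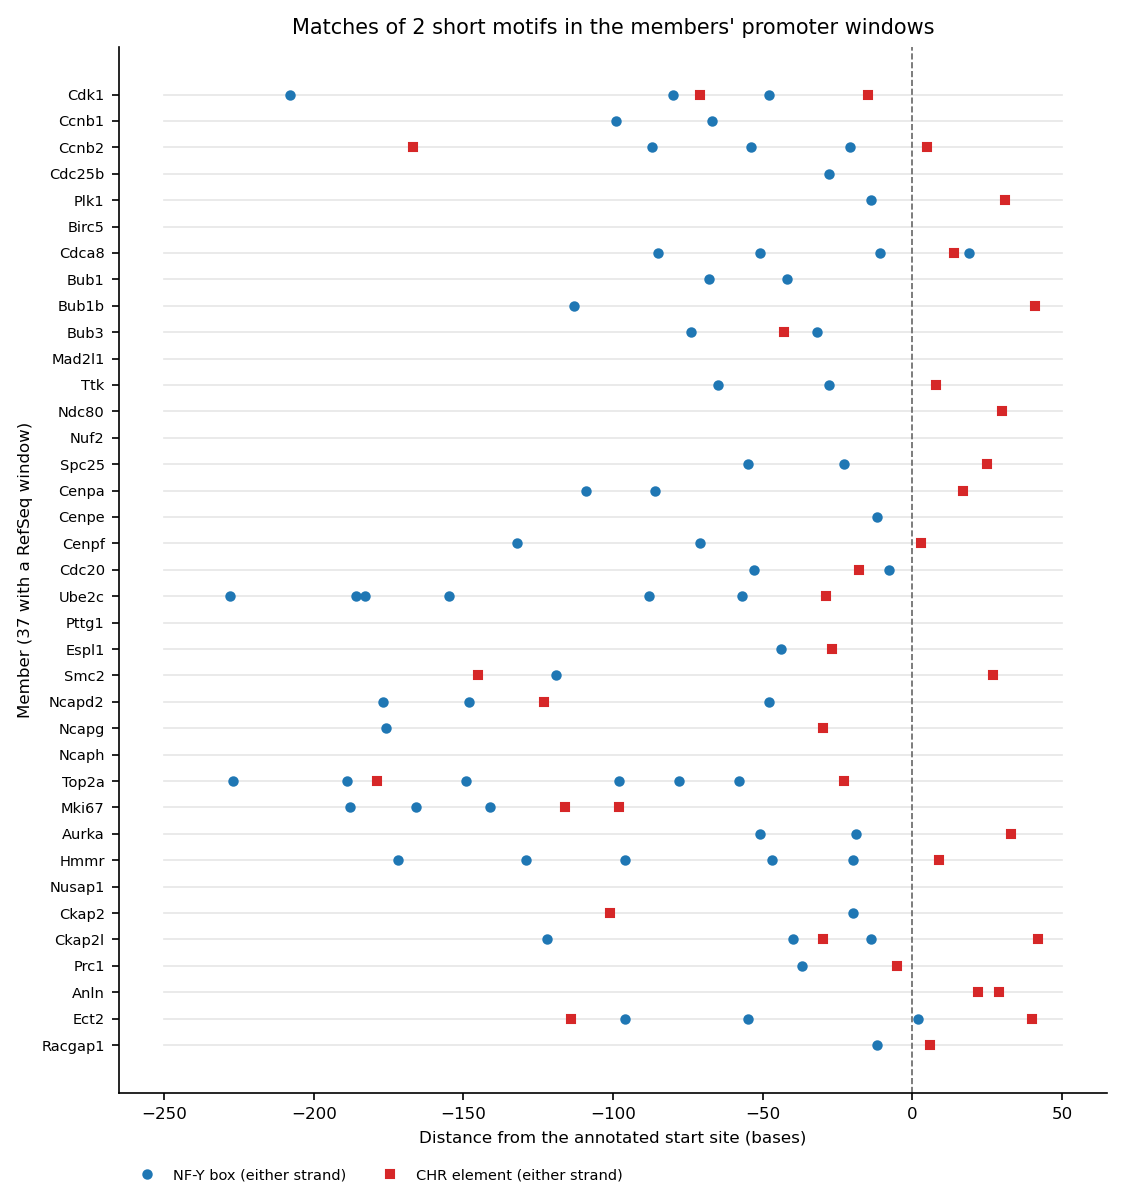
Positions of the NF-Y box (CCAAT, circles) and the CHR element (TTTGAA, squares) on either strand in the first RefSeq window of 37 members, as distance in bases from the annotated start site (dashed line). Circles gather upstream at a median of −68 and squares around the start at a median of −5.

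The falls of members with and without a match covered overlapping ranges. The median log2 fold change from E12.5 to P0 was −3.86 in the 19 members with at least 2 CCAAT boxes, −3.70 in the 10 with 1 and −3.63 in the 8 with none. It was −3.75 in the 27 members with TTTGAA and −3.65 in the 10 without. Bub3, with both motifs in the stretch shown, fell least of all 44. Birc5, Mad2l1, Nuf2, Pttg1, Ncaph and Nusap1 had neither motif in the window, and their log2 fold changes ranged from −2.26 for Pttg1 to −4.05 for Nusap1.

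The genes of mitotic entry fell together, with Cdc25b behind the rest. Of 6 genes, 6 were called lower at P0 than at E12.5, with a median log2 fold change of −3.87. The share of all genes tested that were called lower in this comparison was 32%. It is the baseline for the E12.5 to P0 counts of each role and list below. Ccnb1 encodes cyclin B1, the main partner of Cdk1 in mitosis. Its level was 239 and 252 CPM at E12.5, then 169 and 164 (E14), 82.3 and 79.3 (E15.5), 44.8 and 40.6 (E17), and finally 12.51 and 14.99 at P0. No stage overlapped its neighbour, and the fall to P0 was −4.13 ± 0.11 (log2 fold change ± SE, adjusted p = 3.74e-07). Cdk1 itself went from 234 and 235 CPM at E12.5 to 17.9 and 16.4 at P0 (−3.78 ± 0.10, adjusted p = 3.74e-07). Plk1, a kinase that acts from entry to cytokinesis, changed by −3.97 ± 0.15, Cdc25c by −4.12 ± 0.25 and Ccnb2 by −3.72 ± 0.23.

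Cdc25b encodes one of the phosphatases that activate Cdk1. It had 14.03 and 14.17 CPM at E12.5, then 12.502 and 12.487 (E14), 8.04 and 8.36 (E15.5), 7.08 and 6.16 (E17), and finally 5.22 and 5.11 at P0. Its libraries separated at every step, but the spread of values was narrow and 36.6% of the E12.5 level was left at P0. The log2 fold change to P0 was −1.45 ± 0.12 (adjusted p = 1.66e-05), against −4.12 ± 0.25 for its relative Cdc25c. Only the step from E14 to E15.5 was called for Cdc25b (−0.61 ± 0.11, adjusted p = 0.00306).

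In the chromosomal passenger complex, which corrects faulty attachments and later guides cytokinesis, 4 of 4 genes were called lower at P0 than at E12.5. Aurkb, the kinase of the complex, had 64.6 and 69.9 CPM at E12.5, then 52.4 and 49.8 (E14), 24.1 and 22.7 (E15.5), 14.8 and 9.09 (E17), and finally 4.24 and 3.84 at P0. Its stages did not overlap, and the fall was −4.08 ± 0.23 (adjusted p = 2.47e-06). Birc5 encodes survivin, which docks the complex on centromeres. It read 102 and 127 CPM at E12.5, then 89.2 and 88.1 (E14), 38.5 and 35.6 (E15.5), 26.3 and 22.8 (E17), and finally 11.4 and 8.02 at P0. Again each pair lay below the one before, and the total change was −3.65 ± 0.18 (adjusted p = 1.32e-06). Cdca8, which encodes borealin, fell by 3.35 on the log2 scale.

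Incenp, the scaffold that binds and activates Aurkb, fell less than its partners. The libraries gave 17.1 and 15.6 CPM at E12.5, then 13.4 and 10.9 (E14), 5.66 and 5.11 (E15.5), 3.18 and 3.004 (E17), and finally 2.07 and 2.72 at P0. The P0 pair lay below the E17 pair, but the difference was not called (−0.27 ± 0.20, adjusted p = 0.347). From E12.5 to P0 it fell by 2.66 ± 0.18 on the log2 scale (adjusted p = 5.65e-06).

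The spindle checkpoint held both ends of the range. Bub1b encodes BubR1, a part of the mitotic checkpoint complex that binds Cdc20. It stood at 15.1 and 17.6 CPM at E12.5, then 11.8 and 11.4 (E14), 4.55 and 4.48 (E15.5), 2.16 and 2.22 (E17), and finally 0.544 and 0.668 at P0, the last from 5 and 28 counts. Its log2 fold change of −4.62 ± 0.22 (adjusted p = 1.19e-06) was the lowest of the 44, and 3.70% of the E12.5 level was left. The kinase Bub1 followed at −4.44 ± 0.34, with 2 and 15 counts at P0. Ttk, the kinase that starts checkpoint signalling, changed by −3.75 ± 0.17 and Mad2l1, the checkpoint protein Mad2, by −2.65 ± 0.16.

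Bub3, the adaptor that brings Bub1 and BubR1 to kinetochores, kept most of its footprints. Its level was 254 and 269 CPM at E12.5, then 233 and 261 (E14), 209 and 211 (E15.5), 157.9 and 150.5 (E17), and finally 164 and 145 at P0. The E12.5 and E14 pairs overlapped, as did the E17 and P0 pairs. The fall over the whole course was −0.77 ± 0.10 (adjusted p = 0.000264), and 59.1% of the E12.5 level was left. It was not called with library sizes set by total counts alone (−0.24, adjusted p = 0.0816), a scaling that raises the median of all genes by 0.53. Relative to that median the change was −0.75 under both scalings, a match that follows from shifting all genes nearly alike. Of the single steps only E15.5 to E17 was called (−0.45 ± 0.10, adjusted p = 0.0326). With the other members falling around it, Bub3 took 6.84% and 7.20% of the members' counts at E12.5 but 34.3% and 28.5% at P0.

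Genes of the kinetochore and centromere were lower at P0 by the call rule in 7 of 7 cases, with a median log2 fold change of −3.64. Spc25 belongs to the Ndc80 complex, which grips the microtubule end. It had 139 and 108 CPM at E12.5, then 71.3 and 95.5 (E14), 40.5 and 41.3 (E15.5), 28.4 and 28.05 (E17), and finally 4.68 and 7.64 at P0. Replicates scattered more at E12.5 and E14 than at E15.5 and E17, without overlap between stages, and the total fall was −4.22 ± 0.24 (adjusted p = 2.47e-06). Its complex partners Spc24, Ndc80 and Nuf2 changed by −3.81 ± 0.21, −3.64 ± 0.22 and −3.48 ± 0.19.

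Cenpa encodes the histone H3 variant that marks centromeres. The libraries gave 168 and 184 CPM at E12.5, then 171 and 147 (E14), 67.7 and 57.7 (E15.5), 57.1 and 44.2 (E17), and finally 23.2 and 19.3 at P0. The E12.5 and E14 pairs overlapped, and a drop then followed between E14 and E15.5 (−1.34 ± 0.16, adjusted p = 0.000464). Over the whole course Cenpa fell by 3.08 ± 0.17 on the log2 scale (adjusted p = 2.07e-06). Cenpe and Cenpf, large proteins of the outer kinetochore, changed by −3.68 ± 0.27 and −3.63 ± 0.27, with 4 and 6 counts in P0 replicate 1.

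All 4 genes of anaphase onset were called lower at P0 than at E12.5. Ube2c, the ubiquitin-conjugating enzyme that works with the APC/C, read 303 and 339 CPM at E12.5, then 229 and 258 (E14), 111 and 98.3 (E15.5), 63.1 and 56.0 (E17), and finally 23.7 and 15.1 at P0. Every stage lay below the one before, and the fall was −4.14 ± 0.19 (adjusted p = 1.05e-06). Cdc20 changed by −3.91 ± 0.13 and Espl1, which encodes separase, by −3.72 ± 0.32.

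Pttg1 encodes securin, the inhibitor that holds separase in check. It gave 435 and 438 CPM at E12.5, then 308 and 365 (E14), 215 and 225 (E15.5), 175 and 147 (E17), and finally 73.0 and 111 at P0. The stages did not overlap, and 21.0% of the E12.5 level was left at P0, against 7.74% for Espl1. The log2 fold change was −2.26 ± 0.19 (adjusted p = 1.87e-05). Together Bub3 and Pttg1 held 18.6% and 19.0% of the members' counts at E12.5, and 49.6% and 50.2% at P0.

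Of 7 genes of chromosome structure, 7 were called lower over the course, with a median of −3.66. Smc2 and Smc4 form the core shared by both condensins, and Ncapd2, Ncapg and Ncaph belong to condensin I alone. Ncapg had 16.6 and 14.1 CPM at E12.5, then 8.66 and 9.51 (E14), 4.49 and 4.35 (E15.5), 2.79 and 2.55 (E17), and finally 0.653 and 0.907 at P0. Its stages were separate, with a fall of −4.11 ± 0.22 (adjusted p = 1.85e-06). Ncaph changed by −3.66 ± 0.13 and Ncapd2 by −3.03 ± 0.15.

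Smc2 read 43.2 and 32.4 CPM at E12.5, then 22.8 and 25.9 (E14), 13.02 and 14.19 (E15.5), 9.02 and 9.09 (E17), and finally 2.83 and 6.37 at P0. Relative to their mean, the P0 values differed more than those of the other stages, and the fall to P0 was −2.88 ± 0.28 (adjusted p = 4.73e-05). Smc4 had 81.0 and 77.3 CPM at E12.5, then 68.5 and 64.4 (E14), 30.9 and 32.1 (E15.5), 18.8 and 20.1 (E17), and finally 6.42 and 8.66 at P0 (−3.33 ± 0.14, adjusted p = 6.75e-07). Subunits of condensin II alone, which are not members, changed less. Ncapg2 changed by −2.62 ± 0.21 and Ncapd3 by −1.48 ± 0.12, while Ncaph2 was not called (−0.37 ± 0.14, adjusted p = 0.0527). Top2a, which untangles sister DNA, changed by −3.96 ± 0.14 and Mki67, whose protein coats mitotic chromosomes, by −3.95 ± 0.27.

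Spindle assembly genes were called lower at P0 than at E12.5 in 7 of 7 cases, against 32% of all genes tested. At each of the last 3 steps they were called lower in 7 of 7 cases. The shares of all genes called lower at those steps were 19.6% (E14 to E15.5), 3.43% (E15.5 to E17) and 11.1% (E17 to P0). Tpx2, which activates and targets the kinase Aurka, had 144 and 136 CPM at E12.5, then 97.6 and 95.3 (E14), 48.0 and 47.25 (E15.5), 24.8 and 22.7 (E17), and finally 8.92 and 12.7 at P0. The stages were apart, and the change was −3.64 ± 0.15 (adjusted p = 6.20e-07). Dlgap5, a microtubule-bundling protein of the spindle, stood at 13.1 and 13.3 CPM at E12.5, then 10.1 and 8.37 (E14), 3.62 and 3.84 (E15.5), 1.78 and 1.76 (E17), and finally 0.653 and 0.668 at P0. It fell the most in this group (−4.27 ± 0.22, adjusted p = 1.66e-06). Hmmr, Nusap1, Aurka and Ckap2 changed by −4.16, −4.05, −3.86 and −3.31 on the log2 scale.

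Ckap2l, a spindle protein related to Ckap2, fell the least of these 7. Its libraries gave 13.9 and 12.7 CPM at E12.5, then 8.92 and 9.89 (E14), 5.06 and 4.73 (E15.5), 2.64 and 2.40 (E17), and finally 0.979 and 1.65 at P0. No stages overlapped, and the total was −3.12 ± 0.20 (adjusted p = 4.17e-06). The last step (−0.74 ± 0.21, adjusted p = 0.0429) was close to the threshold, and it was not called when any one library outside P0 was left out.

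The cytokinesis group, too, was called lower in 4 of 4 cases. Ect2 encodes the exchange factor that switches on RhoA at the cleavage furrow. It had 81.1 and 79.3 CPM at E12.5, then 55.0 and 54.8 (E14), 27.96 and 24.87 (E15.5), 17.1 and 12.8 (E17), and finally 3.59 and 5.13 at P0. Each pair was below the one before, with a fall of −4.11 ± 0.19 (adjusted p = 1.05e-06). Racgap1, a part of centralspindlin that recruits Ect2, read 192 and 204 CPM at E12.5, then 149.5 and 158.2 (E14), 102 and 98.4 (E15.5), 53.8 and 57.6 (E17), and finally 33.3 and 28.1 at P0. Without overlap between stages, it fell by 2.71 ± 0.11 on the log2 scale (adjusted p = 6.20e-07) and kept 15.48% of its E12.5 level. Prc1, which bundles the central spindle, and Anln, which organises the contractile ring, changed by −3.92 ± 0.18 and −3.63 ± 0.21.

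**Figure D3:**
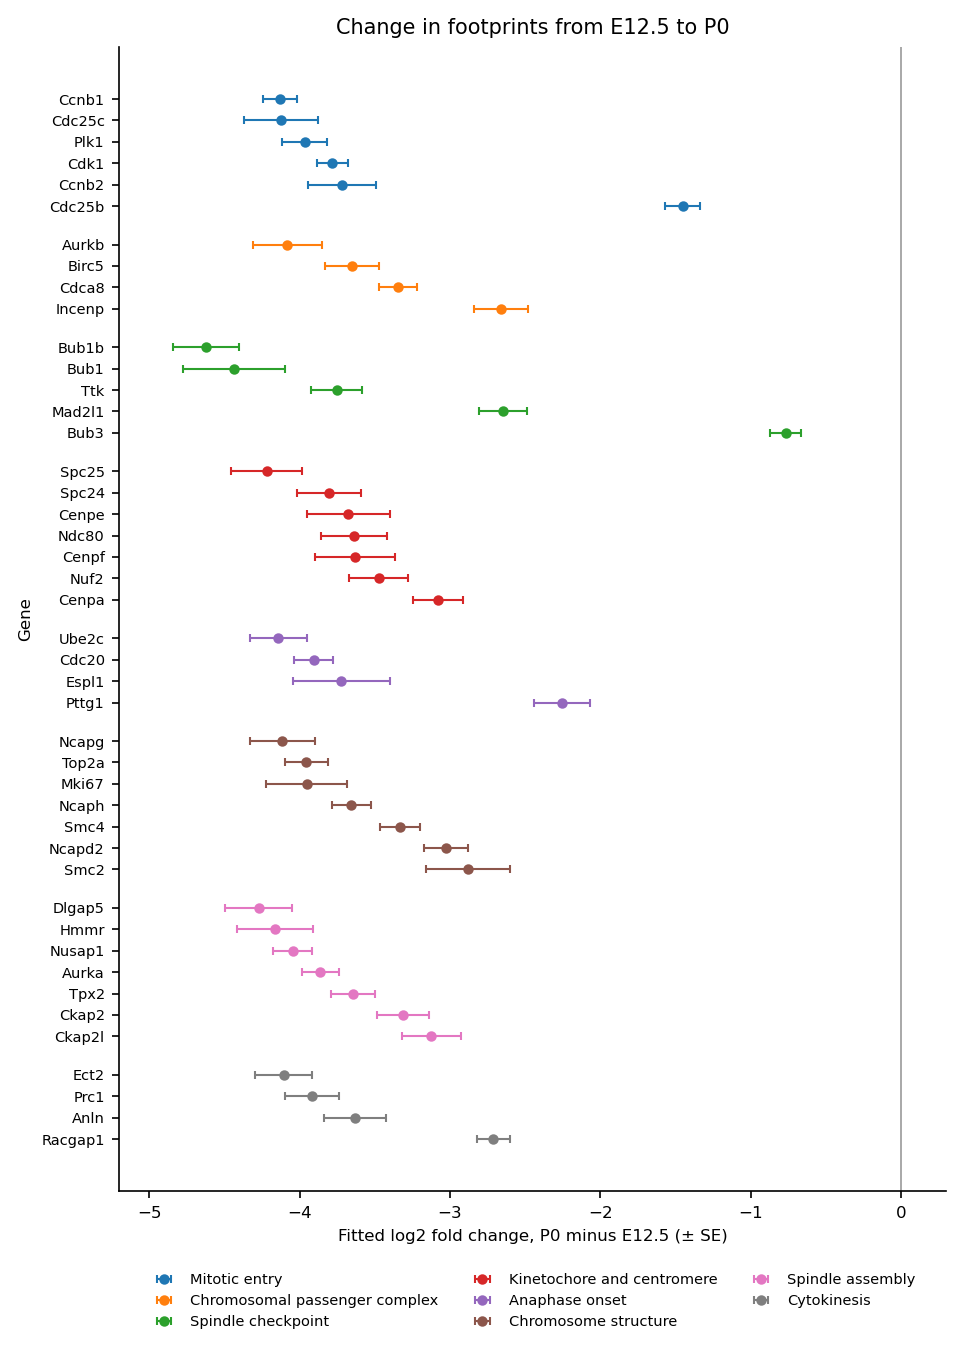
Fitted log2 fold change from E12.5 to P0 for the 44 members, with bars of 1 SE, grouped and coloured by role. All 44 lie below 0, from −4.62 (Bub1b) to −0.77 (Bub3), and Cdc25b and Pttg1 also stand to the right of the rest.

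The fall was spread over the whole course. The labels do not give the time from E17 to birth, so step sizes are not rates per day. From E12.5 to E14 the members' median log2 fold change was −0.49 (a 1.41-fold fall), and 44 of 44 fitted values lay below 0. The all-gene median was −0.0015, and 7.8% of all genes lay below the members' median. In 42 of 44 genes both E14 libraries were below both E12.5 libraries, against 26.2% of all genes. Only Ncapg (−0.74 ± 0.12, adjusted p = 0.0461) and Ncaph (−0.53 ± 0.09, adjusted p = 0.0477) were called lower, with 0.141% of all genes called lower, and 36 members had an unadjusted p under 0.05, as did 15.9% of all genes. Neither gene was called when any one library of E12.5, E14, E15.5 or E17 was left out. Without P0 replicate 1, 31 members were called lower, and without P0 replicate 2, 29, while the genes called lower over the whole table went from 19 to 448 and 422.

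From E14 to E15.5, 43 of 44 members were called lower, against 19.6% of all genes, and the exception was Bub3 (−0.23 ± 0.10, adjusted p = 0.110). The median log2 fold change was −1.06, a 2.09-fold fall, with Spc24 lowest at −1.56 ± 0.18 (adjusted p = 0.000453). In 44 of 44 members the E15.5 libraries lay below those of E14, against 38.8% of all genes. Whether this step exceeded the one before was tested within the same fit, in a contrast added after the data were seen. The fitted difference was below 0 for 44 of 44 members (40 with total counts as library sizes), with a median of −0.50. The all-gene median was −0.02, and 21.5% of all genes lay below the members' median. The difference was called for Cdc20 alone (−0.84 ± 0.17, adjusted p = 0.0408), with 2.83% of all genes called lower. The 2 steps share the E14 libraries, and 23 members had an unadjusted p under 0.05, as did 19.4% of all genes. Cdc20 was not called with any one library outside P0 left out, and 16 members were called with either P0 library left out, where the calls over all genes went from 504 to 1743 and 1793.

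From E15.5 to E17 the median was −0.80, a 1.74-fold fall, and 33 of 44 members were called lower, against 3.43% of all genes. The E17 libraries were below those of E15.5 in 44 of 44 members, against 33.8% of all genes. The 11 that were not called were Cdc25b, Birc5, Bub1, Nuf2, Spc24, Spc25, Cenpa, Cenpe, Pttg1, Espl1 and Smc2, of which 5 are kinetochore or centromere genes. This count depended on single libraries, as did that over all genes. It was 0 without E15.5 replicate 1, E15.5 replicate 2 or E17 replicate 2, where 0 of all genes were called in either direction, though 36 to 39 members still had an unadjusted p under 0.05. It was 1 (Aurkb) without E17 replicate 1, where 18 genes were called in all. In the full fit 43 members, and 25.7% of all genes, had an unadjusted p under 0.05.

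From E17 to P0 the median was −1.34, a 2.53-fold fall, and 39 of 44 members were called lower, against 11.1% of all genes. Spc25 fell the most (−2.11 ± 0.24, adjusted p = 0.00195), and Cdc25b, Incenp, Bub3, Espl1 and Smc2 were not called. In 43 of 44 members both P0 libraries were below both E17 libraries, against 28.9% of all genes, and Bub3 was the exception (−0.01 ± 0.10, adjusted p = 0.971). The number called was 26 without E17 replicate 1, where calls over all genes went from 2767 to 552. It was 0 in a fit of the E17 and P0 libraries alone, where 0 of all genes were called, and where 39 members and 21.9% of all genes had an unadjusted p under 0.05.

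**Figure D4:**
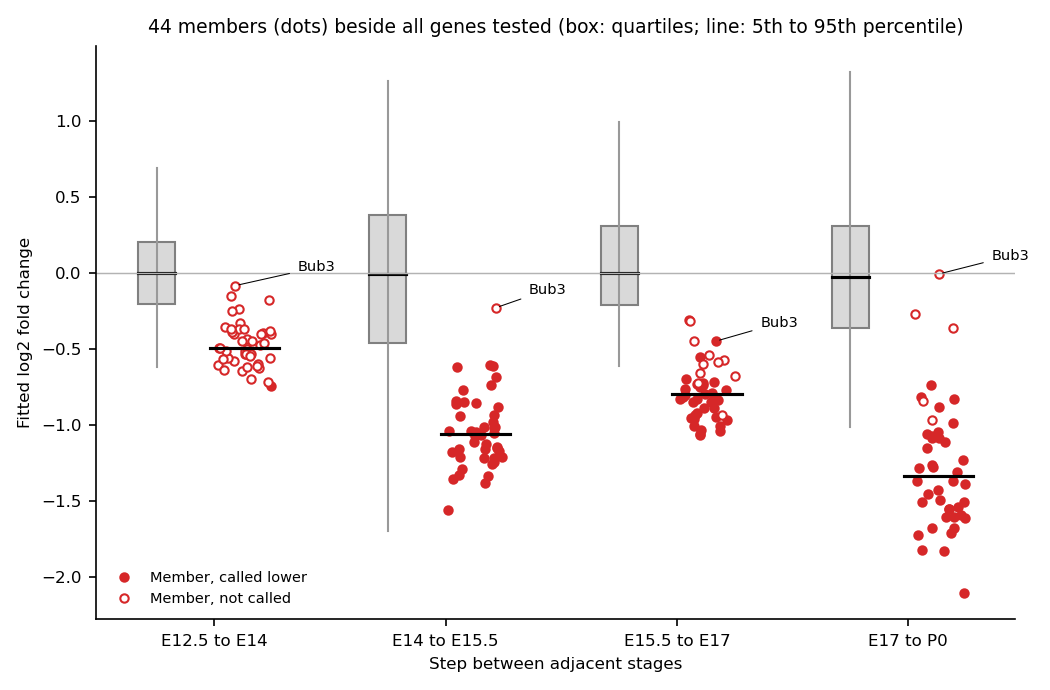
Fitted log2 fold changes of the 44 members at each of the 4 steps (dots, filled where called lower, bar at the median), beside the spread of all 13484 genes tested (box for the quartiles, line from the 5th to the 95th percentile). Member medians of −0.49, −1.06, −0.80 and −1.34 lie below the all-gene medians near 0, and Bub3 is the uppermost dot at 3 of the 4 steps.

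Other genes of the cell cycle were read from lists drawn up by complex and pathway. Among 30 genes of DNA replication, 30 were called lower at P0 than at E12.5, with a median log2 fold change of −2.83, for example Mcm2 of the replicative helicase (−3.47 ± 0.15, adjusted p = 7.68e-07). At E14 to E15.5, 26 of them were called lower, with a median of −0.89. Of 20 regulators of mitotic entry and transcription, 16 were called lower to P0 and none higher. Ccna2, cyclin A2, changed by −4.02 ± 0.12, Mybl2, which encodes B-Myb, by −4.25 ± 0.43 and Foxm1, another activator of mitotic genes, by −3.14 ± 0.21. Lin37 and Lin52, subunits of the MuvB core, and the phosphatase inhibitors Ensa and Arpp19 were not called. With total counts as library sizes, Ensa, Arpp19 and Lin52 were called higher, as were 47.8% of all genes. With DESeq2, Ensa alone of this list was called higher.

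Of 29 further kinetochore and centromere genes, 27 were called lower at P0 and 2 higher, with a median of −2.57. Casc5, also named Knl1, the platform for Bub1 and Bub3, fell by 3.85 ± 0.26. The 2 called higher were Zwint (0.44 ± 0.14, adjusted p = 0.0236) and Cenpt (0.65 ± 0.23, adjusted p = 0.0370). Zwint, which is also known from neurons, had 450 and 440 CPM at E12.5 and 518 and 704 at P0. Both were also called higher with total counts as library sizes and with DESeq2.

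Cohesin and the APC/C showed smaller changes. Of 15 cohesin genes, 11 were called lower at P0 and 1 higher, with a median of −0.99. With total counts as library sizes 7 were lower and 1 higher, with a median of −0.46. The factors tied to replication and mitosis fell the most, with Esco2 at −4.12 ± 0.32, Cdca5 (sororin) at −3.73 ± 0.19 and Sgol1 (shugoshin) at −3.73 ± 0.27. Core ring subunits changed less, with Smc1a at −1.12 ± 0.18, Rad21 at −0.68 ± 0.12 and Smc3 not called (−0.75 ± 0.30, adjusted p = 0.0548). Of the 14 APC/C subunits and its other activator Fzr1, 8 were called lower and 2 higher to P0, with a median of −0.42. With total counts the APC/C list had 0 lower, 6 higher and a median of 0.11, at a median of all genes of 0.51 and with 47.8% of all genes called higher. Measured from the all-gene median, the APC/C list was at −0.41 and the cohesin list at −0.98 under both scalings. A change of scaling shifts all genes of a comparison by nearly the same amount, so this match was bound to occur. It does not show which scaling is nearer to the tissue.

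Cells that could carry these footprints were read from markers in the same fit. Of 16 genes of radial glia and intermediate progenitors, 13 were called lower at P0 and 2 higher (Fabp7 and Slc1a3), with a median of −2.77. From E12.5 to E14 none was called and the median was −0.09, where the members' median was −0.49. From E14 to E15.5, 13 were called lower and 1 higher with a median of −1.15, beside −1.06 for the members. Pax6, a radial glia factor, had stage means of 202, 171, 87.3, 48.6 and 30.7 CPM from the first stage to the last. Eomes, the factor of intermediate progenitors, had 60.2, 71.5, 47.0, 25.1 and 6.17. The sum over all 16 genes did not follow these 2 down to E17. Its stage means were 2567, 2534, 2395, 2575 and 1802 CPM in the same order. The lists differ in size and their difference was not tested. Among 16 genes of postmitotic neurons, 13 were called higher to P0 and none lower, with a median of 1.99. Of all genes, 30.1% were called higher.

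**Figure D5:**
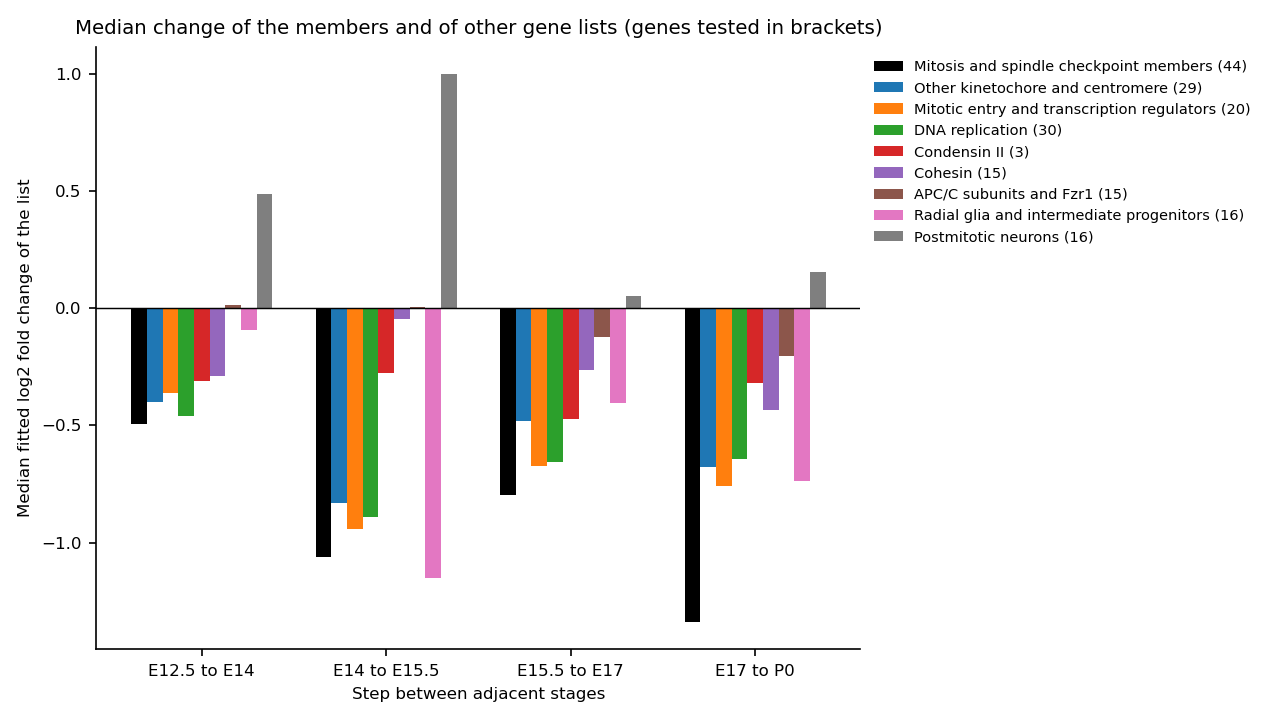
Median fitted log2 fold change at each of the 4 steps for the 44 members (black) and for 8 other lists, with the number of genes tested in brackets. The members' bars are at −0.49, −1.06, −0.80 and −1.34, the APC/C bars stay between −0.20 and 0.01, and the neuron bars lie above 0. Library sizes were TMM-scaled. With total counts the APC/C median from E12.5 to P0 is itself above 0. Measured from the all-gene median it is −0.41 under both, because a scaling shifts all genes nearly alike.

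Markers of other tissues also moved between stages. Of all genes, 19.6% were called lower and 16.5% higher from E14 to E15.5. The summed level of 10 choroid plexus genes was 293 to 353 CPM at E12.5, 1165 to 1174 at E14, and 7.77 to 16.9 in the 6 later libraries, and 8 of the 8 tested were called lower from E14 to E15.5. Summed over 10 genes of meninges and fibroblasts it was 109.8 to 112.9 CPM at E12.5, 74.0 to 82.6 at E14 and 5.66 to 14.04 later, with 10 of 10 called lower at that step. Red blood cell genes (11 found) summed to 10040 to 11610 CPM at E12.5 and E14, 6906 to 7422 at E15.5 and E17, and 1439 to 1862 at P0. Endothelial genes (10) lay between 42.2 and 52.7 CPM at E12.5, E14 and E17, and between 19.4 and 24.8 at E15.5 and P0. Ganglionic eminence and interneuron genes (12) rose in sum from between 33.2 and 39.8 CPM at E12.5 to between 179.7 and 194.5 at P0, and those of the oligodendrocyte lineage (8) from 31.5 and 33.4 to 112.6 and 142.6. Microglial genes (10) summed to between 24.2 and 42.0 CPM. From E14 to E15.5, 6 of the 10 were called lower and 0 higher, with a median of −0.84. With total counts as library sizes 2 were called lower at that step. No gene of these lists was at 0 in all libraries. The part of these cells in the members' footprints was not tested.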

How the data were processed

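Neocortex Ribo-seq libraries were sequenced by the authors, who deposited whole-number footprint counts per gene, not normalized. According to the methods, they trimmed adapters, collapsed duplicate sequences, removed reads of structural RNAs and aligned the rest to GENCODE M12 with multi-mapping reads kept, so genes with near-identical copies are uncertain. The submitters' processing notes name STAR 2.7.0. The methods derive isoform abundances with DeepShape-prime and length-corrected gene counts with tximport. Whether the deposited whole numbers come from that step, and so carry a length correction, is not given in the sources used here.

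The 44 members and all lists were chosen with earlier results of these data known. Of 22373 identifiers, 22274 matched a symbol. The filter kept 13484 genes, those whose 2 libraries of any 1 stage held 32 footprints or more together. Counts were TMM-scaled (edgeR 4.0.16) and fitted with limma-voom (limma 3.58.1, R 4.3.3), with 1 coefficient per stage over 10 libraries. Tests were two-sided with Benjamini-Hochberg adjustment over all genes kept. CPM and SD describe the libraries. The code was tested on simulated counts. Members given in every library are, per role, the one with the highest mean CPM and those with the largest and smallest fall to P0. Alternatives were total counts, DESeq2 1.42.0, edgeR's quasi-likelihood test, no or stricter filtering (100 footprints), removal of 66 Hist genes, quality weights, a replicate block, fits of 2 stages and leaving out each library. Same-numbered libraries did not deviate together in every pair of stages, so they were not paired. Levels per coding length and protein sequences were not analysed here.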

Additional observations from a re-analysis of the deposited data

How the results depend on the processing

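All 44 members were called lower at P0 than at E12.5 under each alternative run except total counts, where Bub3 was not (43). From E14 to E15.5 the count stayed between 38 and 43. The 2 calls from E12.5 to E14 became 1 with total counts or edgeR, 12 with DESeq2, 0 without a filter, 8 with the stricter filter, 22 with quality weights, 0 with only the 2 stages compared, and 0 to 31 with 1 library left out. The 33 calls from E15.5 to E17 ranged from 0 to 42 with 1 library left out. From E17 to P0, 39 became 18 with quality weights and 0 with only the 2 stages compared, and 26 to 40 with 1 library left out. The difference between the first 2 steps, called for 1 gene, gave 0 with total counts, 5 with DESeq2, 0 without a filter, 4 with the stricter filter, 15 with quality weights and 0 to 16 with 1 library left out. Calls lower over all genes also moved between these fits. From E12.5 to E14 they went from 19 to 13 with total counts and 12 with edgeR. They were 102 with DESeq2, 5 without a filter, 39 with the stricter filter and 253 with quality weights. From E17 to P0 they went from 1492 to 300 with quality weights and 0 with only the 2 stages compared. For the step difference they went from 381 to 327 with DESeq2, 347 with the stricter filter and 1127 with quality weights. The causes of these changes were not tested.

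With total counts, the members' medians were −0.77 from E14 to E15.5, −1.23 from E17 to P0, −3.21 from E12.5 to P0 and −0.26 for the step difference. That scaling raised the median of all genes by 0.29, 0.11, 0.53 and 0.23. The members' median relative to all genes was then −1.05, −1.32, −3.72 and −0.48, against −1.05, −1.31, −3.71 and −0.49 with TMM. The match follows from the scaling, which shifts all genes of a comparison nearly alike. The share of higher calls among all genes called rose from 45.7% to 72.7% at E14 to E15.5 and from 48.5% to 72.0% from E12.5 to P0.

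Bub3 changed sign under some alternatives. From E17 to P0 it was 0.11 with total counts, 0.0358 with DESeq2, 0.022 with the stricter filter, 0.023 with quality weights, and −0.0876 to 0.12 with 1 library left out (above 0 without E15.5 replicate 2, E17 replicate 1 or P0 replicate 2). It was 0.066 from E14 to E15.5 with total counts. Its distance from the all-gene median at that step was −0.22 under both scalings, which a shift of all genes nearly alike requires. From E12.5 to E14 Bub3 was at −0.16 to 0.0017 with 1 library left out (above 0 without E14 replicate 1).

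The replicate numbers were not taken as pairs, since same-numbered deviations did not correlate alike over the 10 pairs of stages. Correlations ran from −0.63 to −0.11 between E12.5 and the other stages, and from −0.04 to 0.43 among those other stages. Whether libraries share a factor under other numbers was not tested. A replicate block gave 0, 43, 28 and 37 calls at the 4 steps, 44 from E12.5 to P0 and 0 for the step difference, for the members, while calls over all genes went from 86 to 4 at the first step and from 504 to 206 for the step difference.

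The shallow P0 replicate 1, with 7544404 counts, limits P0 values of low genes, and 2 libraries per stage limit the single steps.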
